A study of Mus musculus with 6 samples.

Results

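The genes described here are 35 genes of protein folding, quality control and stress sensing in the endoplasmic reticulum (ER). They were taken by name from a table of 19877 genes, whatever their level, and all 35 were found in it. The names were chosen with earlier results of these data known. They were kept in 4 groups by role: 12 chaperones and co-chaperones, 6 enzymes of oxidative folding, 12 members of the degradation and translocon machinery, and 5 sensors and regulators. RNA was sequenced from mouse cells labelled ADSCs, the common abbreviation for stromal stem cells of fat. The genotype is labelled WT in every library. The 3 knockdown libraries carry a short hairpin against Ifit1, and the 3 scrambled libraries carry a scrambled hairpin. Each of 3 labelled batches holds 1 library of either group. Separate cultures or animals are not named for the libraries. The p-values therefore describe the spread among these 6 libraries, which may be technical.

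Proteins that enter the ER are folded by chaperones of the HSP70 and HSP90 families, by lectin chaperones that bind glycoproteins, and by protein disulfide isomerases that are recharged by ERO1 oxidases. Proteins that fail to fold are recognised by lectins, passed back through a membrane ubiquitin ligase complex and degraded in the cytosol. When unfolded proteins build up, the sensors IRE1, PERK and ATF6 start the unfolded protein response, in which XBP1, ATF4 and cleaved ATF6 raise the transcription of chaperones and degradation factors. Stromal cells that secrete much collagen rely on this machinery.

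Levels are given as FPKM, the fragment count of a gene scaled to its length and to the depth of the library. Between 32.2 and 40.2 M fragments were recovered from the FPKM of a knockdown library and between 37.1 and 40.6 M from those of a scrambled library. Ifit1 had 1.76, 1.48 and 1.51 FPKM in knockdown libraries 1, 2 and 3, against 4.90, 3.75 and 4.97 FPKM in scrambled libraries 1, 2 and 3, so the targeted transcript was lower wherever the label says knockdown. Stromal markers were abundant in sum, mostly from Vim, Col1a1 and Col1a2. The 11 genes summed to between 3554 and 3723 FPKM in knockdown libraries and between 4186 and 4370 FPKM in scrambled libraries. Within that list Col1a1 (log2 fold change −0.86), Ly6a (−0.82), Col1a2 (−0.77), Pdgfrb (−0.65), Eng (−0.58), Pdgfra (−0.57) and Thy1 (−0.42) were lower. Vim (0.30), Cd44 (0.50) and Itgb1 (0.09) were higher. Nt5e was too low to test, and Eng and Pdgfra had low levels. Endothelial markers summed to at most 0.0984 FPKM in knockdown and 0.101 FPKM in scrambled libraries. Of 8 leukocyte markers, 5 were under 0.1 FPKM in every library, Ptprc among them, and the list summed to between 5.86 and 5.97 FPKM in knockdown and between 4.53 and 5.61 FPKM in scrambled libraries, mostly from Cd14 and Cd68. Of the epithelial markers, 5 genes summed to between 0.595 and 1.03 FPKM in knockdown and between 1.80 and 2.07 FPKM in scrambled libraries, and of the adipocyte markers Adipoq and Fabp4 summed to at most 0.941 FPKM in knockdown and 1.07 FPKM in scrambled libraries. The part of these differences in the results was not tested, and in bulk RNA fewer cells of a type cannot be told apart from less RNA per cell.

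The members did not move as 1 block. In knockdown cells 6 chaperones were higher, while the degradation genes, oxidative folding enzymes and sensors that passed the test were all lower. Of the 35 members, 34 passed the filter of at least 1 FPKM in at least 3 libraries, which took no account of group. Of these 34, 6 were higher (17.6%) and 13 were lower (38.2%) in knockdown at a limma adjusted p under 0.05, and 15 did not pass. Over all 10311 tested genes, 51.0% passed, 19.8% higher and 31.1% lower, so the count of members called was near that background. The members were chosen with earlier results of these data known. Their shares, also those by role below, therefore describe the listed genes only. The groups did not overlap for 19 of the 34 members, against 61.1% of all tested genes. The median log2 fold change was −0.09 for the members and −0.05 for all tested genes. The split depends on the scaling between libraries: 7 were higher and 9 lower after median centring, 4 and 15 after rescaling to TPM, 4 and 15 after quantile normalization, and 4 and 16 after cyclic loess normalization.

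**Figure D1:**
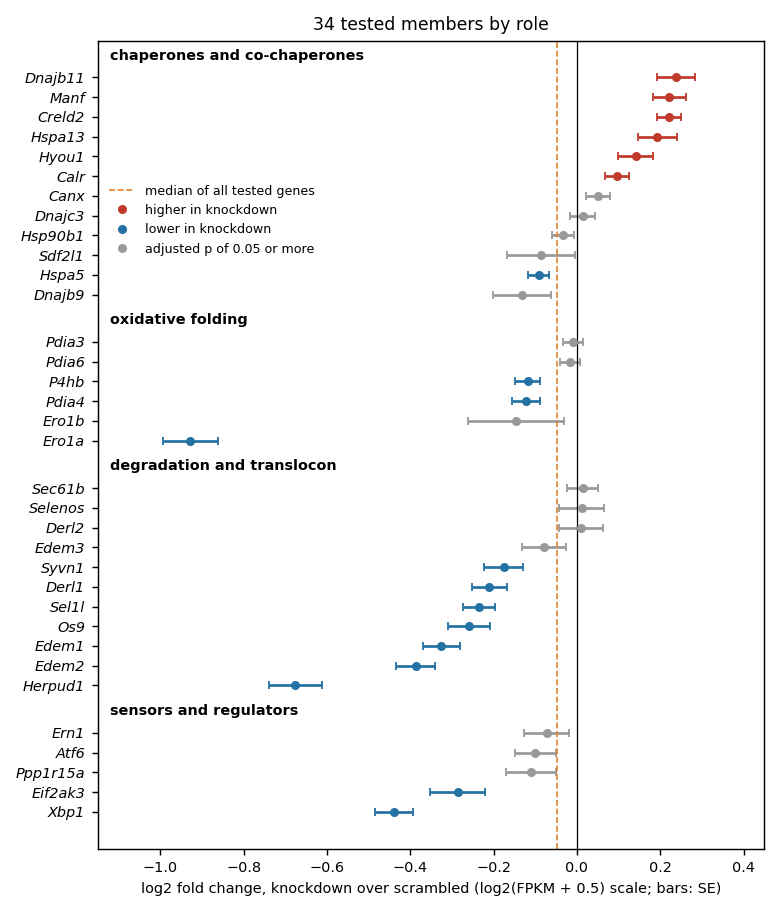
Log2 fold change of each of the 34 tested members, knockdown over scrambled, on the log2(FPKM + 0.5) scale, with the SE as a bar, grouped by role; the dashed line marks the median of all tested genes. The 6 red points (higher in knockdown) are all chaperones, and Ero1a at −0.93 and Herpud1 at −0.68 lie furthest to the left.

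Stretches of member promoters are shown because they hold sites of the ER stress response. Genes with the same kind of site were called in opposite directions, and several of these calls depended on the processing. The ER stress response element (ERSE), a site bound by ATF6 and XBP1, was searched as CCAAT, then 9 bases of any kind, then CCACG, and its variant ERSE-II as ATTGG, 1 base of any kind and CCACG, on both strands. RefSeq promoter windows on GRCm38.p6 (250 bases before to 50 after the start) were at hand for 30 of the 35 members. An ERSE was found in 10 of those 30 members, against 0.119% of all 32851 windows, and an ERSE-II in 2 members, against 0.0365% of all windows. Counted per gene, 0.17% of the 8239 tested genes with a window held an ERSE and 0.109% an ERSE-II, members included. In the sequences below, read 5′ to 3′ on the gene's strand, capitals mark the fixed bases of the sites.
Hspa5, chr2:34772017-34772051, plus strand: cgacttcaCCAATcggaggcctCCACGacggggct
Syvn1, chr19:6046524-6046558, plus strand: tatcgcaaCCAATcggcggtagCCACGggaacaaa
Calr, chr8:84847067-84847101, minus strand: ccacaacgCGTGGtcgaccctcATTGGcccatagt
Creld2, chr15:88819512-88819546, plus strand: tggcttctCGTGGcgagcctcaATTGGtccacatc
Hsp90b1, chr10:86705525-86705664, minus strand: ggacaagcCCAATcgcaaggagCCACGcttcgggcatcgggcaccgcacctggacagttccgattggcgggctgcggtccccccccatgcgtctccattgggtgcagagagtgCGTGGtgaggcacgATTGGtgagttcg
Herpud1, chr8:94386369-94386395, plus strand: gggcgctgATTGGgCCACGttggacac
Dnajb11, chr16:22857844-22857870, plus strand: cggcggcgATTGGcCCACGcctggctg

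In Calr and Creld2 the site lies in the reverse orientation, and Hsp90b1 holds 1 site in each orientation. Of the 10 members with an ERSE, Calr and Creld2 were higher and Hspa5 and Syvn1 were lower in knockdown. The call of Creld2 held in each of the 17 alternatives. Those of Calr, Hspa5 and Syvn1 held in 8, 14 and 15, and after median centring neither Hspa5 nor Syvn1 passed. Canx, Dnajc3, Ero1b, Hsp90b1 and Pdia6 did not pass the test, and Derl3 was too low to test. The ERSE-II genes went opposite ways, Dnajb11 higher and Herpud1 lower. Among the 20 members with a window and no ERSE, 1 was higher, 10 were lower and 9 did not pass. These 20 include the 2 ERSE-II genes: the 1 higher is Dnajb11, and Herpud1 is among the 10 lower. Manf, Hyou1 and Hspa13, which were higher, Derl1, which was lower, and Atf6 had no window and are not in these counts, so the counts of higher members cannot be set against each other. Herpud1 also holds the letters TTGCATCA, a form of the CHOP-ATF4 composite site, found in 0.895% of all windows. Ppp1r15a holds the cyclic AMP response element TGACGTCA, found in 1.79% of windows. The element TGACGTGG, preferred by XBP1, and TGATGNAAT, a form of the amino acid response element, were in none of the 30 members' windows and in 0.676% and 0.965% of all windows. Counted per tested gene with a window, the shares of these elements were 0.655%, 3.76%, 1.1% and 0.51%, in the order named. Read on the other strand, TTGCATCA matches all but the last letter of TGATGNAAT, so these searches differ little in letters. A match of letters is a description, not a measured binding site.

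Of 12 tested chaperones and co-chaperones, 6 were higher in knockdown (Dnajb11, Manf, Creld2, Hspa13, Hyou1 and Calr), 1 was lower (Hspa5) and 5 did not pass, against 19.8% higher and 31.1% lower over all tested genes. The rises were small, between 0.10 and 0.24 on the log2 scale. Dnajb11, a J-domain co-chaperone of BiP, had 34.1, 34.6 and 31.8 FPKM in knockdown libraries 1, 2 and 3, against 28.7, 29.5 and 26.9 FPKM in scrambled libraries 1, 2 and 3. Each knockdown value lay above each scrambled one, and the difference held at 0.24, 0.23 and 0.24 within batches 1, 2 and 3 (log2 fold change 0.24 ± 0.05 SE, limma adjusted p = 0.00289).

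Manf is a secreted protein that binds BiP and is retained in the ER. Its level was 185, 184 and 169 FPKM in knockdown libraries, against 158, 149 and 154 FPKM in scrambled libraries (log2 fold change 0.22 ± 0.04, adjusted p = 0.00192). Creld2, a stress-induced ER protein with disulfide isomerase activity, had 61.5, 60.0 and 59.0 FPKM in knockdown libraries, against 51.5, 51.8 and 51.5 FPKM in scrambled libraries. The groups of Creld2 did not overlap, with 60.2 ± 1.29 FPKM in knockdown and 51.6 ± 0.159 FPKM in scrambled libraries (SD, n = 3 each; log2 fold change 0.22 ± 0.03, adjusted p = 0.000393). Hspa13, an HSP70 relative in microsomes, had 20.9, 21.4 and 19.6 FPKM in knockdown libraries, against 18.4, 17.1 and 18.4 FPKM in scrambled libraries (0.19 ± 0.05, adjusted p = 0.00843). These 4 genes, Dnajb11, Manf, Creld2 and Hspa13, were also higher in each of the 17 alternatives tried.

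Hyou1 and Calr were higher in the planned test, but their calls depended on the processing. Hyou1, the large HSP70 relative that exchanges nucleotide on BiP, had 81.2, 81.2 and 72.9 FPKM in knockdown libraries, against 70.3, 71.6 and 71.2 FPKM in scrambled libraries. Knockdown library 3 stood close to the scrambled range (log2 fold change 0.14 ± 0.04, adjusted p = 0.0233). The call was lost in 10 of 17 alternatives, among them leaving out any single library other than knockdown 3, with adjusted p up to 0.135. Calr, calreticulin, the soluble lectin chaperone, was the most abundant member, with 662, 677 and 634 FPKM in knockdown libraries, against 622, 619 and 605 FPKM in scrambled libraries (0.10 ± 0.03, adjusted p = 0.0231). Its call was lost in 9 of 17 alternatives, and its sign turned after quantile normalization (−0.01, adjusted p = 0.868) and cyclic loess normalization (−0.02, adjusted p = 0.644). The calls of Calr that were lost included those without knockdown library 1 or 2 and without scrambled library 2 or 3.

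Hspa5 encodes BiP, the main HSP70 of the ER and the usual marker of ER stress. It had 425, 425 and 413 FPKM in knockdown libraries, against 457, 449 and 441 FPKM in scrambled libraries. The 3 knockdown values lay below the 3 scrambled values by a small margin (log2 fold change −0.09 ± 0.03, adjusted p = 0.0156). That call was lost after median centring (adjusted p = 0.498), with no variance trend and without scrambled library 1, and in the remaining 14 alternatives it held with the same sign. The ER form of HSP90, Hsp90b1, had 481, 494 and 472 FPKM in knockdown libraries, against 501, 490 and 490 FPKM in scrambled libraries. Its groups overlapped (−0.03 ± 0.03, adjusted p = 0.314), and it passed as lower in 3 alternatives: TPM, quantile and cyclic loess normalization.

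Canx, calnexin, the membrane-bound lectin chaperone, had 176, 178 and 169 FPKM in knockdown libraries, against 171, 166 and 168 FPKM in scrambled libraries (log2 fold change 0.05 ± 0.03, adjusted p = 0.161). Dnajb9, the J-domain protein ERdj4, had 4.83, 5.34 and 4.98 FPKM in knockdown libraries, against 6.12, 5.13 and 5.52 FPKM in scrambled libraries (−0.13 ± 0.07, adjusted p = 0.147). Both overlapped between groups. Canx passed as higher after median centring only (adjusted p = 0.0132), and Dnajb9 passed in no alternative. Dnajc3, the J-domain protein p58IPK, averaged 31.2 ± 0.453 FPKM in knockdown and 30.9 ± 0.0113 FPKM in scrambled libraries (SD, n = 3 each), with a log2 fold change of 0.01 ± 0.03. Sdf2l1, a partner of Dnajb11, stood at −0.09 ± 0.08, and within batches 1, 2 and 3 its difference was −0.28, −0.16 and 0.18, so its batches did not share a direction. It passed as lower only without scrambled library 3 (adjusted p = 0.0189).

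**Figure D2:**
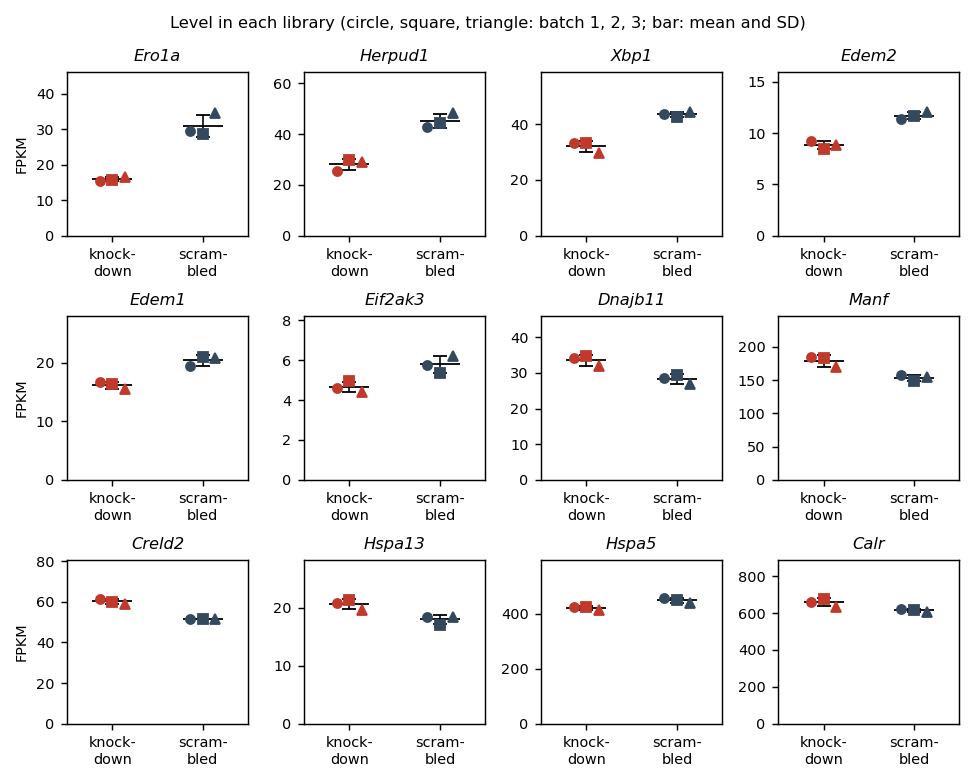
Level in FPKM of 12 members in each library, knockdown on the left and scrambled on the right of each panel; symbols mark the batch and the bar marks the mean and SD of 3 libraries. The groups lie furthest apart for Ero1a, and for Hspa5 and Calr they are narrowly separated.

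Oxidative folding split by enzyme: the mean level of the oxidase Ero1a in knockdown was 0.516 of that in scrambled libraries, while the disulfide isomerases moved little. Of the 6 tested enzymes 3 were lower (50%), 0 were higher and 3 did not pass, against 31.1% lower and 19.8% higher over all tested genes. ERO1 enzymes pass electrons from protein disulfide isomerases to oxygen, and ERO1 alpha is known as a target of hypoxia signalling and of CHOP. Ero1a had 15.5, 15.8 and 16.6 FPKM in knockdown libraries 1, 2 and 3, against 29.6, 28.7 and 34.6 FPKM in scrambled libraries. No knockdown value came near a scrambled one. Its log2 fold change, −0.93 ± 0.07 with a limma adjusted p of 2.9e-05, was larger in size than that of 98.4% of all tested genes. It was −0.91, −0.84 and −1.04 within batches 1, 2 and 3.

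The paralog Ero1b, known for its part in insulin-producing cells, was low, with 1.10, 0.877 and 0.862 FPKM in knockdown libraries, against 1.31, 0.957 and 1.05 FPKM in scrambled libraries. These values rest on 137 to 195 fragments in a knockdown library and 172 to 257 in a scrambled library, and the groups overlapped (log2 fold change −0.15 ± 0.11, adjusted p = 0.311). Whether Ero1a and Ero1b changed differently was not tested. P4hb, protein disulfide isomerase itself and also the beta subunit of collagen prolyl hydroxylase, had 434, 432 and 421 FPKM in knockdown libraries, against 468, 451 and 479 FPKM in scrambled libraries. The groups were separate and the fall was small (−0.12 ± 0.03, adjusted p = 0.00896, lost after median centring with adjusted p = 0.188).

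Pdia4, the isomerase ERp72, had 91.9, 92.5 and 89.8 FPKM in knockdown libraries, against 104, 98.2 and 96.7 FPKM in scrambled libraries (log2 fold change −0.12 ± 0.03, adjusted p = 0.0143). Its call was lost after median centring (adjusted p = 0.208) and without scrambled library 1. Pdia3, the partner of the lectin chaperones, averaged 309 ± 3.58 FPKM in knockdown and 312 ± 3.36 FPKM in scrambled libraries. Pdia6, an isomerase that acts on IRE1 and PERK, averaged 214 ± 2.19 FPKM in knockdown and 217 ± 3.76 FPKM in scrambled libraries. Neither passed in the planned test, and both passed as lower after quantile and cyclic loess normalization. Whether the fall of Ero1a differed from those of the isomerases was not tested across libraries, but the ratio within a library needs no scaling. There were 27.9, 27.4 and 25.3 P4hb transcripts per Ero1a transcript in knockdown libraries, against 15.8, 15.7 and 13.9 in scrambled libraries, per length. This pair was chosen after its values were seen, so its separation is not a test.

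**Figure D3:**
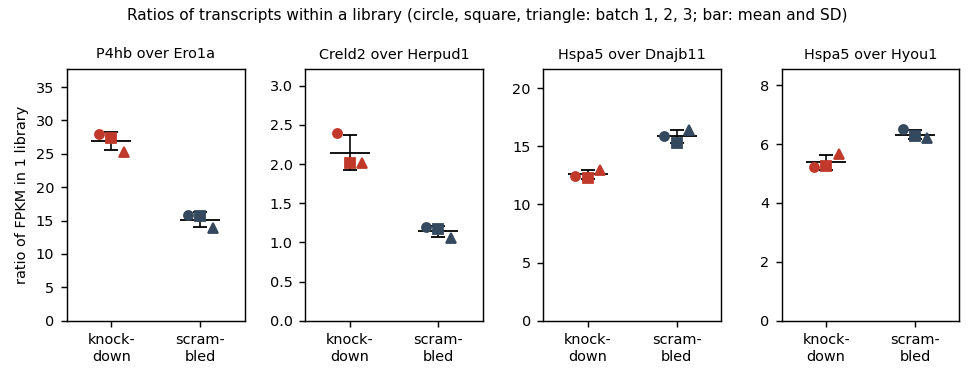
Ratio of the FPKM of 2 members within each library, for 4 pairs chosen after their values were seen; knockdown on the left, scrambled on the right, with the mean and SD of 3 libraries. The groups do not overlap for any of the 4 pairs, and P4hb over Ero1a and Creld2 over Herpud1 are higher in knockdown while both ratios with Hspa5 on top are lower. Given how the pairs were chosen, this separation is not a test.

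Other pairs were set side by side in the same way, without a test. The ratio of Creld2 to Herpud1 was 2.40, 2.02 and 2.02 in knockdown libraries and 1.20, 1.17 and 1.06 in scrambled libraries. Hspa5 exceeded its co-chaperone Dnajb11 by a factor of 12.5, 12.3 and 13.0 in knockdown libraries and of 15.9, 15.3 and 16.4 in scrambled libraries. For Hspa5 over Hyou1 the ratio was 5.24, 5.24 and 5.67 in knockdown libraries and 6.50, 6.28 and 6.19 in scrambled libraries. The ratio of Calr to Canx, the soluble over the membrane-bound lectin, averaged 3.77 ± 0.0235 in knockdown and 3.66 ± 0.0558 in scrambled libraries.

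Among the degradation and translocon members, 7 of 11 tested were lower in knockdown (63.6%, against 31.1% of all tested genes), 0 were higher (against 19.8%) and 4 did not pass. Across all 17 alternatives between 6 and 7 of the 11 were lower, and none was higher. The falls ran from −0.68 for Herpud1 to −0.18 for Syvn1. Herpud1, a membrane protein with a ubiquitin-like domain that organises the degradation complex, had 25.6, 29.7 and 29.2 FPKM in knockdown libraries, against 43.0, 44.3 and 48.5 FPKM in scrambled libraries. Its highest knockdown value was well below its lowest scrambled value (log2 fold change −0.68 ± 0.06, limma adjusted p = 8.6e-05), and the size exceeded that of 95.8% of all tested genes.

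The EDEM proteins, which trim mannose from misfolded glycoproteins, did not move alike. Edem2, which makes the first mannose cut, had 9.22, 8.42 and 8.86 FPKM in knockdown libraries, against 11.4, 11.6 and 12.1 FPKM in scrambled libraries (log2 fold change −0.39 ± 0.05, adjusted p = 0.000286). Edem1 had 16.6, 16.3 and 15.5 FPKM in knockdown libraries, against 19.4, 21.0 and 20.7 FPKM in scrambled libraries (−0.33 ± 0.04, adjusted p = 0.000513). Edem3 had 7.35, 6.58 and 6.71 FPKM in knockdown libraries, against 7.26, 7.20 and 7.41 FPKM in scrambled libraries, and its groups overlapped (−0.08 ± 0.05, adjusted p = 0.239). The ratio of Edem3 to Edem2 within a library was 0.797, 0.781 and 0.758 in knockdown libraries and 0.637, 0.620 and 0.613 in scrambled libraries, with no overlap. It too was chosen after its values were seen, and whether Edem3 and Edem2 changed differently was not tested.

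Os9, a lectin that delivers glycoproteins to the ligase, had 12.9, 12.2 and 13.5 FPKM in knockdown libraries, against 16.1, 14.9 and 15.5 FPKM in scrambled libraries (log2 fold change −0.26 ± 0.05, adjusted p = 0.00293). Sel1l, the scaffold of the ligase complex, had 15.3, 16.0 and 15.9 FPKM in knockdown libraries, against 18.6, 18.0 and 19.3 FPKM in scrambled libraries (−0.23 ± 0.04, adjusted p = 0.00139). Both were separated between groups. Syvn1, the ubiquitin ligase HRD1 that works on this scaffold, averaged 17.1 ± 0.793 FPKM in knockdown and 19.4 ± 0.823 FPKM in scrambled libraries (−0.18 ± 0.05, adjusted p = 0.0132). The call of Syvn1 was lost after median centring (adjusted p = 0.076) and without scrambled library 2. Whether counting used strand is not known here, and exons of Syvn1, Manf, Pdia3, Pdia6, Derl2, Ppp1r15a, Eif2ak3, Hsp90b1 and Dnajb9 overlap a gene on the opposite strand (Mrpl49 for Syvn1, Dcaf1 for Manf). On the same strand, exons of Manf overlap Rbm15b, those of Hsp90b1 overlap Gm15344 and Gm25745, and those of Pdia4 overlap Mir704. The values of all these genes are uncertain to that extent. Overlaps were not checked for Ero1a and Ero1b.

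The derlins are membrane proteins of the channel through which substrates leave the ER. Derl1 had 52.1, 49.8 and 52.1 FPKM in knockdown libraries, against 59.8, 56.3 and 62.6 FPKM in scrambled libraries, with no overlap (log2 fold change −0.21 ± 0.04, adjusted p = 0.00335). Derl2 averaged 10.1 ± 0.449 FPKM in knockdown and 10.0 ± 0.524 FPKM in scrambled libraries (0.01 ± 0.05, adjusted p = 0.891). Derl3, a secretory-cell form in mouse, had 0 fragments in each knockdown library and 1 fragment in the scrambled libraries together, so no change was detectable at this depth. Selenos, a selenoprotein that links the channel to the ATPase VCP, stood at 0.01 ± 0.05, and Sec61b, a subunit of the import channel, at 0.01 ± 0.04. Derl2, Selenos and Sec61b overlapped between groups, and each changed sign under some scalings.

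Of the 5 sensors and regulators, 2 were lower (40%), 0 were higher and 3 did not pass. Over all tested genes 31.1% were lower and 19.8% higher. Xbp1, whose mRNA is spliced by IRE1 into the form that encodes the active factor, had 33.3, 33.2 and 29.8 FPKM in knockdown libraries, against 43.8, 42.7 and 44.3 FPKM in scrambled libraries. The groups were clearly separate (log2 fold change −0.44 ± 0.05, limma adjusted p = 0.000131), and the values count spliced and unspliced mRNA together. Eif2ak3 encodes PERK, the kinase that phosphorylates eIF2 alpha under ER stress. It had 4.62, 4.94 and 4.43 FPKM in knockdown libraries, against 5.79, 5.38 and 6.24 FPKM in scrambled libraries (−0.29 ± 0.07, adjusted p = 0.00674). Its difference within batches 1, 2 and 3 was −0.30, −0.11 and −0.45, and the call was lost after quantile normalization (adjusted p = 0.0649).

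Atf6, the membrane-bound transcription factor, had 10.4, 9.59 and 9.47 FPKM in knockdown libraries, against 10.4, 10.3 and 11.0 FPKM in scrambled libraries (log2 fold change −0.10 ± 0.05, adjusted p = 0.125). It passed as lower after rescaling to TPM (adjusted p = 0.0369) and without knockdown library 1. Ern1, which encodes IRE1 alpha, had 6.30, 6.84 and 6.20 FPKM in knockdown libraries, against 6.96, 6.90 and 6.54 FPKM in scrambled libraries (−0.07 ± 0.05, adjusted p = 0.288). Ppp1r15a, the phosphatase subunit GADD34 that reverses eIF2 alpha phosphorylation, had 13.7, 14.8 and 12.8 FPKM in knockdown libraries, against 14.1, 15.0 and 15.6 FPKM in scrambled libraries (−0.11 ± 0.06, adjusted p = 0.152). In Atf6, Ern1 and Ppp1r15a the groups overlapped, and the point estimates were below 0.

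The 12 chaperones summed to 2180, 2211 and 2096 FPKM in knockdown libraries, against 2135, 2100 and 2079 FPKM in scrambled libraries, which overlapped. The 6 oxidative folding enzymes summed to 1065, 1067 and 1051 FPKM in knockdown libraries, against 1138, 1101 and 1138 FPKM in scrambled libraries, with no overlap. The 12 degradation and translocon genes summed to 382, 364 and 376 FPKM in knockdown libraries, against 410, 408 and 419 FPKM in scrambled libraries. The 5 sensors and regulators summed to 68.3, 69.3 and 62.7 FPKM in knockdown libraries, against 81.0, 80.2 and 83.7 FPKM in scrambled libraries. All 35 members made up 0.936% of the summed FPKM in knockdown and 0.982% in scrambled libraries. Abundance ran from Calr and Hsp90b1 through P4hb and Hspa5 down to Ern1, Dnajb9, Eif2ak3 and Ero1b.

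Genes of the same pathways outside the 35 were listed by role. Over all tested genes 19.8% were higher and 31.1% lower, the background for each list below. Among 28 other tested folding factors, 2 were higher (7.14%) and 13 lower (46.4%). With the replicate block 1 was higher and 11 lower. The peptidyl-prolyl isomerases Fkbp11 (log2 fold change 0.20) and Fkbp10 (0.10) were higher, and Fkbp14 (−0.78), Tmx4 (−0.48) and the BiP nucleotide exchange factor Sil1 (−0.43) were lower. Sil1 averaged 2.48 FPKM in knockdown and 3.53 FPKM in scrambled libraries, and its direction was opposite to that of the other exchange factor, Hyou1.

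Other degradation factors went both ways, with 6 higher (20.7%) and 7 lower (24.1%) of 29 tested, against 19.8% and 31.1% of all tested genes. The ubiquitin-conjugating enzymes Ube2j2 (0.21) and Ube2j1 (0.18) and the VCP cofactor Ufd1 (0.16) were higher, while the lectin Erlec1 (−0.41) and the ligases Rnf185 (−0.22) and Marchf6 (−0.19) were lower. Of 25 genes of N-glycan handling, 7 were higher (28%) and 5 lower (20%). The list holds genes that add or trim N-glycans and also the transport genes Lman1, Lman2 and Mcfd2. Among those called were Alg3 (0.26), Alg8 (0.20), the first glucosidase Mogs (0.20), Alg2 (−0.22) and the oxidoreductase subunits Tusc3 (−0.22) and Magt1 (−0.21). Of 23 translocon and signal peptidase genes, 2 were higher (8.70%) and 8 lower (34.8%). Sec11c stood at 0.25, Srprb at 0.17, Srpr at −0.21, Spcs3 at −0.20 and Tram1 at −0.15. After median centring the counts higher and lower were 6 and 7 for other folding factors, 10 and 3 for degradation factors, 10 and 4 for N-glycan genes and 4 and 2 for the translocon. After rescaling to TPM they were 1 and 16, 3 and 10, 3 and 7, and 2 and 13 for the same lists, so the directions of these counts rest on the scaling.

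All 12 tested genes of the PERK, ATF4 and CHOP list were lower (median log2 fold change −0.78), against 31.1% of all tested genes. The list was chosen with earlier results of these data known, so its count describes the listed genes only. All 12 were also lower after each of 3 rescalings (TPM, median centring and quantile normalization) and with the replicate block. Ddit3, which encodes CHOP, averaged 7.85 FPKM in knockdown and 14.6 FPKM in scrambled libraries (−0.86, limma adjusted p = 3.5e-05). Atf4 itself averaged 265 FPKM in knockdown and 327 FPKM in scrambled libraries (−0.30). The pseudokinase gene Trib3 (−2.19), the glutathione-degrading enzyme Chac1 (−1.68) and the lipoprotein receptor Vldlr (−1.63) fell most.

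Among 21 other tested genes of the sensor pathways, 5 were higher (23.8%) and 6 lower (28.6%), near the 19.8% and 31.1% of all tested genes. The calcium regulator Wfs1 (−0.60) and the ER-anchored transcription factors Creb3l1 (−0.57) and Creb3l2 (−0.46) fell most. Creb3l1, known in mouse for its part in collagen secretion by bone cells, averaged 36.9 FPKM in knockdown and 55.0 FPKM in scrambled libraries. The site 1 protease Mbtps1, which cleaves ATF6, was lower (−0.23) and Mbtps2, the site 2 protease, stood at 0.04 (adjusted p = 0.502). Eif2s1, which encodes eIF2 alpha, was higher (0.25), as were the apoptosis effector Bax (0.19) and Tmem33 (0.17).

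Transcripts known to be cut by IRE1 in other mammalian or fly cells were also lower, all 5 of 5 (median −0.52). After median centring 4 of 5 were lower. Over all tested genes 31.1% were lower in the planned test. This list too was chosen with earlier results of these data known, and its Pdgfrb is also 1 of the stromal markers. Bloc1s1, the most widely used readout of that cleavage, averaged 27.8 FPKM in knockdown and 32.8 FPKM in scrambled libraries (log2 fold change −0.24). The other 4, Col6a1 (−0.81), Pdgfrb (−0.65), Scara3 (−0.52) and Sparc (−0.24), were lower as well. Cleavage by IRE1 was not measured. ER-phagy is the selective removal of ER, and UFMylation is the ubiquitin-like tagging that serves it. Of 12 genes of both, 10 were lower (83.3%) and 1 was higher (8.33%), against 31.1% and 19.8% of all tested genes. Ccpg1 (−0.81), Calcoco1 (−0.79) and Retreg1 (−0.40) are receptors for ER-phagy, and Ufm1, the tag itself, was higher (0.26). Of 22 genes of ER to Golgi transport, 11 were lower (50%) and 2 higher (9.09%). The KDEL receptor Kdelr3 stood at −0.28, Sec16a at −0.25, Ergic3 at −0.23, Ergic1 at 0.32 and Tmed2 at 0.12. In the pathway annotation of the authors' deposited table, 30 of the 35 members carry the ER protein processing pathway, and of its 152 tested genes 30 were higher (19.7%) and 50 lower (32.9%), near the 19.8% and 31.1% of all tested genes.

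**Figure D4:**
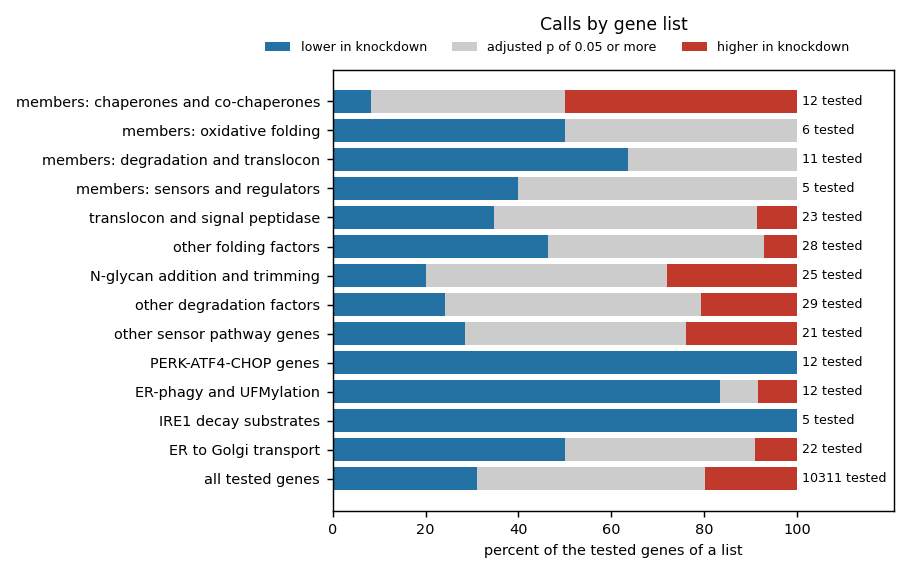
Percent of the tested genes of each list that were lower (blue), not past an adjusted p of 0.05 (grey) or higher (red) in knockdown; the bottom bar gives all 10311 tested genes. The chaperone members have the widest red part with 6 of 12, and the PERK, ATF4 and CHOP genes are blue throughout. Members and lists were chosen with earlier results of these data known.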

How the data were processed

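RNA-seq of 6 libraries was analysed. The authors deposited 1 table of FPKM per gene and library, per the labels. The submitters' processing notes name GRCm38, mm10 and GRCm39 with no role. Aligner, counting and strand setting: not given in the sources used here. Fragments were recovered as the smallest whole multiples within 0.002 for 19877 of 19877 genes. Replicate libraries differed beyond sampling noise (chi-square per gene 3.16 to 12.5).

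Genes that reached 1 FPKM in 3 or more of the 6 libraries were tested on log2(FPKM + 0.5) with limma 3.58.1 in R 4.3.3 (all libraries, trended variance, two-sided, Benjamini-Hochberg over 10311 tested genes, threshold 0.05). Fold changes on this scale understate low genes. Errors after log2 values are SE, after FPKM SD. The fit was tested on simulated data. Batch labels pair the libraries; deviations of paired libraries correlated at 0.0859, 0.0121 and 0.189.

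Members and lists were chosen with earlier results of these data known. Library values were given for the sensors, for up to 6 called members per other role by size of change, and for Hspa5, Hsp90b1, Calr, Canx, P4hb and Dnajb9; Ero1b and Edem3 were added as paralogs, and ratios were chosen after seeing values. Other lists name up to 3 called genes per direction; Ddit3, Atf4, Mbtps1, Mbtps2, Bloc1s1, Sparc and the stromal genes were added after their values were seen. Alternatives changed the pseudocount, filter, scaling, variance trend, block and test, or left out 1 library. Marker genes with no row were not used here. No set test was run.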

Additional observations from a re-analysis of the deposited data

How the results depend on the processing

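Of the 19 called members, 12 kept their call and direction in every one of the 17 alternatives: Dnajb11, Manf, Creld2, Hspa13, Ero1a, Herpud1, Edem1, Edem2, Sel1l, Derl1, Os9 and Xbp1. With the replicate block, 6 members were higher and 13 lower, and no member's call changed. Over all genes, 3001 were higher and 2293 lower after median centring, 1540 and 4035 as TPM, 2486 and 2256 after quantile normalization and 2273 and 2480 after cyclic loess normalization, against 2046 and 3209. The count of lower chaperones, 1, became 0 after median centring and with no variance trend, 2 as TPM and after quantile and cyclic loess normalization, and 0 to 2 without 1 library. Lower oxidative folding enzymes, 3, became 1 after median centring and 5 after quantile and cyclic loess normalization. Lower sensors, 2, became 3 as TPM and 1 after quantile normalization, and 2 to 3 without 1 library. The cause was not tested. Signs turned for 27 member values, 0 of them past the threshold. As TPM these were Dnajc3 (−0.0307), Derl2 (−0.0344), Selenos (−0.0334) and Sec61b (−0.0316). After median centring they were Hsp90b1 (0.0326), Pdia3 (0.0558) and Pdia6 (0.0492). After quantile normalization they were Calr (−0.00627), Canx (−0.0395), Ero1b (0.167), Edem3 (0.0114), Sec61b (−0.0804) and Ern1 (0.0226). After cyclic loess normalization they were Calr (−0.0158), Canx (−0.0279), Ero1b (0.0913), Edem3 (0.00247), Selenos (−0.00624), Sec61b (−0.0655) and Ern1 (0.0133). Without 1 library the log2 fold change ran from −0.0271 to 0.0454 for Derl2, from −0.0382 to 0.0677 for Selenos and from −0.0218 to 0.0478 for Sec61b. Ero1b did not reach a mean FPKM of 5, so that filter gave it no value. Depth limits Ero1b and Derl3.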
